A study of Mus musculus with 36 samples.

Results

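The let-7 family and its relative miR-98 were examined in small RNA libraries of mouse prostate. The members were the 9 guide-strand miRNAs mmu-let-7a-5p, mmu-let-7b-5p, mmu-let-7c-5p, mmu-let-7d-5p, mmu-let-7e-5p, mmu-let-7f-5p, mmu-let-7g-5p, mmu-let-7i-5p and mmu-miR-98-5p, chosen by name from the 1963 miRNAs listed in the deposited tables. Together they made up between 9.81% and 20.5% of the miRNA reads of a library. At 10 weeks 6 of the 9 were higher and 1 lower in TRAMP than in non-TRAMP prostates, where 71.1% of all miRNAs tested differed, and at 30 weeks none was higher and 3 were lower, where 46.3% of all differed. The TRAMP effect differed between these ages for 7 of the 9 and for 41.6% of all miRNAs. No member passed the test between an Elac2 mutant line and its control, where 0% to 5.70% of all miRNAs did.

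RNA came from ventral and lateral prostate lobes of male mice labelled with the strain C56NL/6N. The mice were wild type for Elac2 (WT, Elac2+/+), lacked Elac2 through Cre driven by the probasin promoter (KO, Elac2-/-), or were homozygous for the Ala537Thr change (A537T). ELAC2 is the ribonuclease that removes the 3′ trailer of precursor transfer RNAs, and the study asked how its loss or its variant affects the prostate and its miRNAs. Each line was taken without TRAMP and with 1 copy of the TRAMP transgene, which expresses SV40 T antigens from the probasin promoter, at 10 and at 30 weeks, giving 12 groups of 3 libraries. Probasin is active in prostate epithelium, so both the deletion and the transgene act in those cells, while the dissected lobes also hold stroma, vessels and blood. The study describes 3 mice of each line and time point for its miRNA comparisons and biological replicates throughout, while the sample labels themselves do not tie a library to an animal.

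let-7 was one of the first miRNAs described, as a regulator of developmental timing in worms. In mammals the family is low in stem cells, where LIN28 proteins block its maturation, and rises as cells differentiate. Its targets include Ras genes, Hmga2 and Myc, for which reason it is often studied as a tumour suppressor. A miRNA pairs with its targets mainly through the seed near its 5′ end, so miRNAs with 1 seed are grouped as a family.

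The mature sequences are shown because the family is defined by what they share and because members that differ by a single base can exchange reads in counting. They are RefSeq sequences on GRCm38.p6, and 9 of 9 members matched by name. Capitals mark the seed, bases 2 to 8 counted from 1 at the 5′ end.

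let-7a-5p: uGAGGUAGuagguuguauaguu
let-7b-5p: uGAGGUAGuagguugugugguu
let-7c-5p: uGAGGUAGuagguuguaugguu
let-7d-5p: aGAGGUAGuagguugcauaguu
let-7e-5p: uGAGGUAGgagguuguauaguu
let-7f-5p: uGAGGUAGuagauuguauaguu
let-7g-5p: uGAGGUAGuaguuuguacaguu
let-7i-5p: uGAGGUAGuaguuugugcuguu
miR-98-5p: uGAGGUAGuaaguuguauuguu
let-7k: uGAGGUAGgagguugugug
let-7j: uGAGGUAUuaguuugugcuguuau

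All 9 members are 22 bases long and carry the seed GAGGUAG. With let-7a-5p as the reference, let-7c-5p differs by A19G, let-7e-5p by U9G and let-7f-5p by G12A. let-7b-5p differs by A17G and A19G, let-7d-5p by U1A and U16C, let-7g-5p by G12U and U18C, and miR-98-5p by G11A and A19U. let-7i-5p, with G12U, A17G, U18C and A19U, is the most distant from let-7a-5p. Of the 36 pairs of members, 4 differ at a single base, namely let-7a with let-7c, let-7e or let-7f, and let-7b with let-7c. How far reads moved between such neighbours cannot be told from the tables, so the single values of let-7a, let-7b, let-7c, let-7e and let-7f are less certain than their sum. let-7i-5p and let-7b-5p also differ at 1 base from let-7j and let-7k, over the length they share. As let-7j and let-7k are not members, reads moved there would lie outside the sum.

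Among all miRNAs listed in the tables with a RefSeq sequence, 11 have this seed. The 2 that are not members are let-7k, at 1.53 to 7.70 RPM (miRNA reads scaled to the same total in every library) over the 36 libraries, and miR-1961, at no more than 1.53 RPM. The members therefore carried almost all the reads with this seed. let-7j does not share it, since its seed is GAGGUAU, and it differs from let-7i-5p only by G8U over the length they share.

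The members come from 12 precursor genes, given here on GRCm38 from RefSeq with the overlaps in GENCODE. Mirlet7a-1 (chr13:48538179-48538272), Mirlet7f-1 (chr13:48537829-48537917) and Mirlet7d (chr13:48536012-48536114) lie on the minus strand in an exon of the long noncoding gene 6720427I07Rik. Mirlet7a-1 and Mirlet7f-1 are separated by 261 bases, and Mirlet7f-1 and Mirlet7d by 1714. Mirlet7c-2 (chr15:85706603-85706697) and Mirlet7b (chr15:85707319-85707403) lie on the plus strand, 621 bases apart, in an exon of the noncoding gene Lncppara. Mirlet7f-2 (chrX:151912346-151912428) and Mir98 (chrX:151913214-151913321) are 785 bases apart in an intron of Huwe1, on its strand, the plus strand. Mirlet7g (chr9:106178840-106178927, plus strand) is in an intron of Wdr82, and Mirlet7e (chr17:17830352-17830444, plus strand) is in an intron of Spaca6. Mirlet7a-2 (chr9:41536716-41536811, plus strand) is in an intron of the noncoding gene 3110039I08Rik, and Mirlet7c-1 (chr16:77599657-77599750, plus strand) is in an intron of Mir99ahg and opposite an intron of Gm11146. Mirlet7i (chr10:122985640-122985724, minus strand) is in an exon of the transcribed pseudogene D630033A02Rik. let-7a-5p, let-7c-5p and let-7f-5p each have a pair of precursors, whose identical mature reads cannot be assigned to either. Mirlet7f-1 and Mirlet7e each have a short miRNA gene annotated on the opposite strand.

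The libraries held 4544257 to 21870210 miRNA reads, except library 35, of A537T at 10 weeks, which held 655455. Counting error was small for the members even there, as the rarest, miR-98-5p, had 449 reads in it. All 7 epithelial marker miRNAs had reads in every library. Skeletal muscle miRNAs took 9.71% to 30.6% of the reads in WT at 10 weeks, 3.72% to 13.7% in A537T at 10 weeks, 0.734% to 6.49% in KO at 10 weeks and at most 3.09% in any other library. As shares of a total fall when another tissue adds reads, shares of the reads other than skeletal muscle miRNAs are given beside the affected results. Any reads of the members that came from skeletal muscle stay in these shares, and their number was not tested. In WT at 10 weeks the members took 13.5%, 14.9% and 15.8% of these reads in libraries 28, 29 and 30, in rising order of skeletal muscle miRNAs. KO and A537T libraries at 10 weeks had the same order. Below, muscle reads and muscle miRNAs mean those of skeletal muscle, and smooth muscle markers stay in the total. In such bulk samples, fewer cells of a type and less RNA per cell cannot be told apart.

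The most abundant member was mmu-let-7f-5p, with a mean of 36848 RPM over all libraries and the fifth rank among all miRNAs. mmu-let-7c-5p followed with 29919 RPM, mmu-let-7g-5p with 23375, mmu-let-7i-5p with 21633, mmu-let-7a-5p with 10921 and mmu-let-7b-5p with 10819. mmu-let-7d-5p had 2807 RPM, mmu-miR-98-5p 902 and mmu-let-7e-5p 771. All members are of the same length, so these levels can be set side by side, although ligation and amplification can favour 1 sequence over another. let-7a-5p and let-7b-5p had nearly the same mean, and their ranges over libraries overlapped, as did those of miR-98-5p and let-7e-5p.

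As a share of the members' own reads, let-7f-5p took 26.7% ± 2.60 (SD over the 36 libraries), let-7c-5p 21.4% ± 2.60, let-7g-5p 17.2% ± 2.28 and let-7i-5p 15.9% ± 3.22. let-7a-5p took 7.85% ± 1.24, let-7b-5p 7.69% ± 1.25 and let-7d-5p 2.04% ± 0.289, while miR-98-5p took 0.646% ± 0.189 and let-7e-5p 0.577% ± 0.168. The order differed between groups. let-7i-5p took more than let-7g-5p in non-TRAMP prostates at 10 weeks (19.02% against 17.4%) and less at 30 weeks (12.7% against 16.2%), and miR-98-5p took more than let-7e-5p in TRAMP prostates at 10 weeks (0.85% against 0.38%) and less in non-TRAMP prostates at 30 weeks (0.48% against 0.73%). The lowest and highest library differed by 1.67 times for let-7g-5p in RPM, the steadiest member, and by 4.33 times for let-7b-5p, the most variable.

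**Figure D1:**
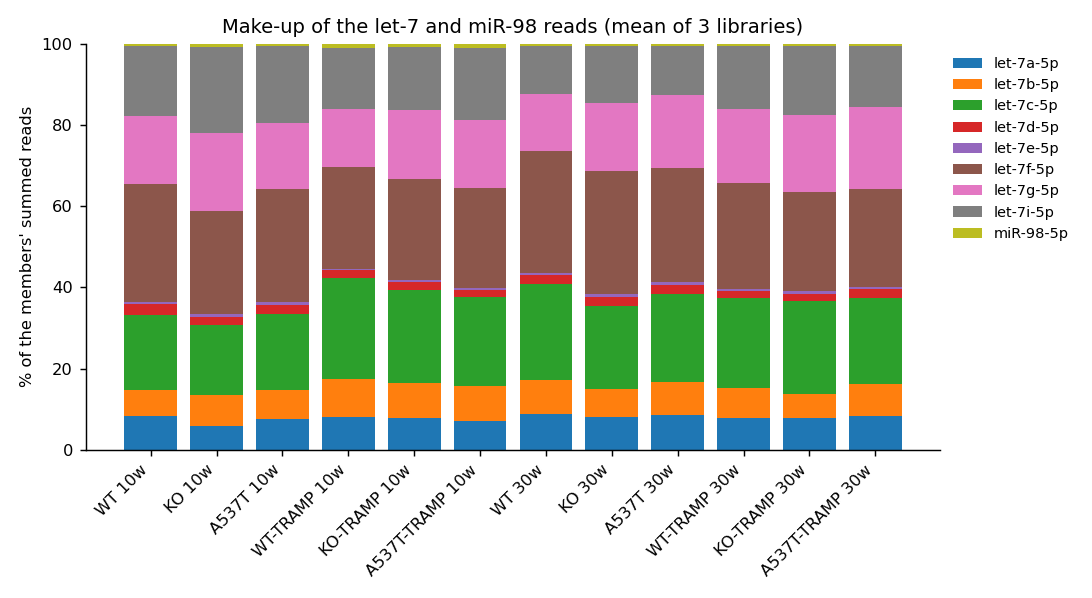
Make-up of the let-7 and miR-98 reads in each of the 12 groups. Each stacked bar gives the percent of the members' summed reads that each member took (mean of 3 libraries). let-7f-5p and let-7c-5p are the broadest bands in most groups, and let-7i-5p narrows from 19.02% in non-TRAMP prostates at 10 weeks to 12.7% at 30 weeks.

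let-7i-5p had the largest SD in this make-up. It took 20.996% of the members' reads in KO at 10 weeks and 11.8% in WT at 30 weeks, the highest and the lowest group mean. In log2(RPM + 1) over the 36 libraries, let-7a-5p was correlated with let-7c-5p at Pearson's r = 0.87 and with let-7d-5p at r = 0.86, and let-7i-5p with miR-98-5p at r = 0.86. let-7i-5p and let-7a-5p had r = -0.17. let-7e-5p had r from -0.46 to 0.09 with the other members. Over the 36 pairs r ran from -0.46 to 0.87 with a median of 0.36, and 28 were positive. These correlations are descriptions over libraries that share groups, totals and, for close neighbours, possibly reads.

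At 30 weeks without TRAMP, 3 libraries stood apart from the others of their groups, 1 in each line. Library 19 of WT, library 23 of KO and library 26 of A537T had 16442, 18013 and 15446 RPM of let-7a-5p, against 11823 and 13100 in the other WT libraries, 7669 and 9238 in the other KO libraries and 11516 and 8990 in the other A537T libraries. They also held the most let-7c-5p, let-7d-5p and let-7f-5p of their groups. let-7i-5p was lower in library 19, at 13395 RPM, and in library 23, at 14078, than in the others of their groups, which had 19788 to 21175. In library 26, in contrast, let-7i-5p was the highest of its group at 18827 RPM. These 3 libraries were picked after their values had been seen, and results they change are also given without them.

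The first comparison asked whether each member varied over the 12 groups. It was tested with limma on log2(RPM + 1) over all 36 libraries, with Benjamini-Hochberg adjustment over the 298 miRNAs that had a mean of at least 10 RPM. In this F test 79.2% of all miRNAs tested passed an adjusted p of 0.05, so that a call there says little about the members. All 9 members passed the filter on mean level, and 8 passed the test, with let-7e-5p (F = 8.49, adjusted p = 1.56e-05), miR-98-5p (F = 8.16, adjusted p = 2.01e-05) and let-7g-5p (F = 6.56, adjusted p = 1.07e-04) at the top. let-7d-5p did not pass (adjusted p = 0.0632), but it did without library 16, 22, 23, 27 or 30, with adjusted p from 0.0154 to 0.0470. let-7i-5p (adjusted p = 0.0213) fell short without library 1 (adjusted p = 0.0530) or library 2 (adjusted p = 0.0501).

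**Figure D2:**
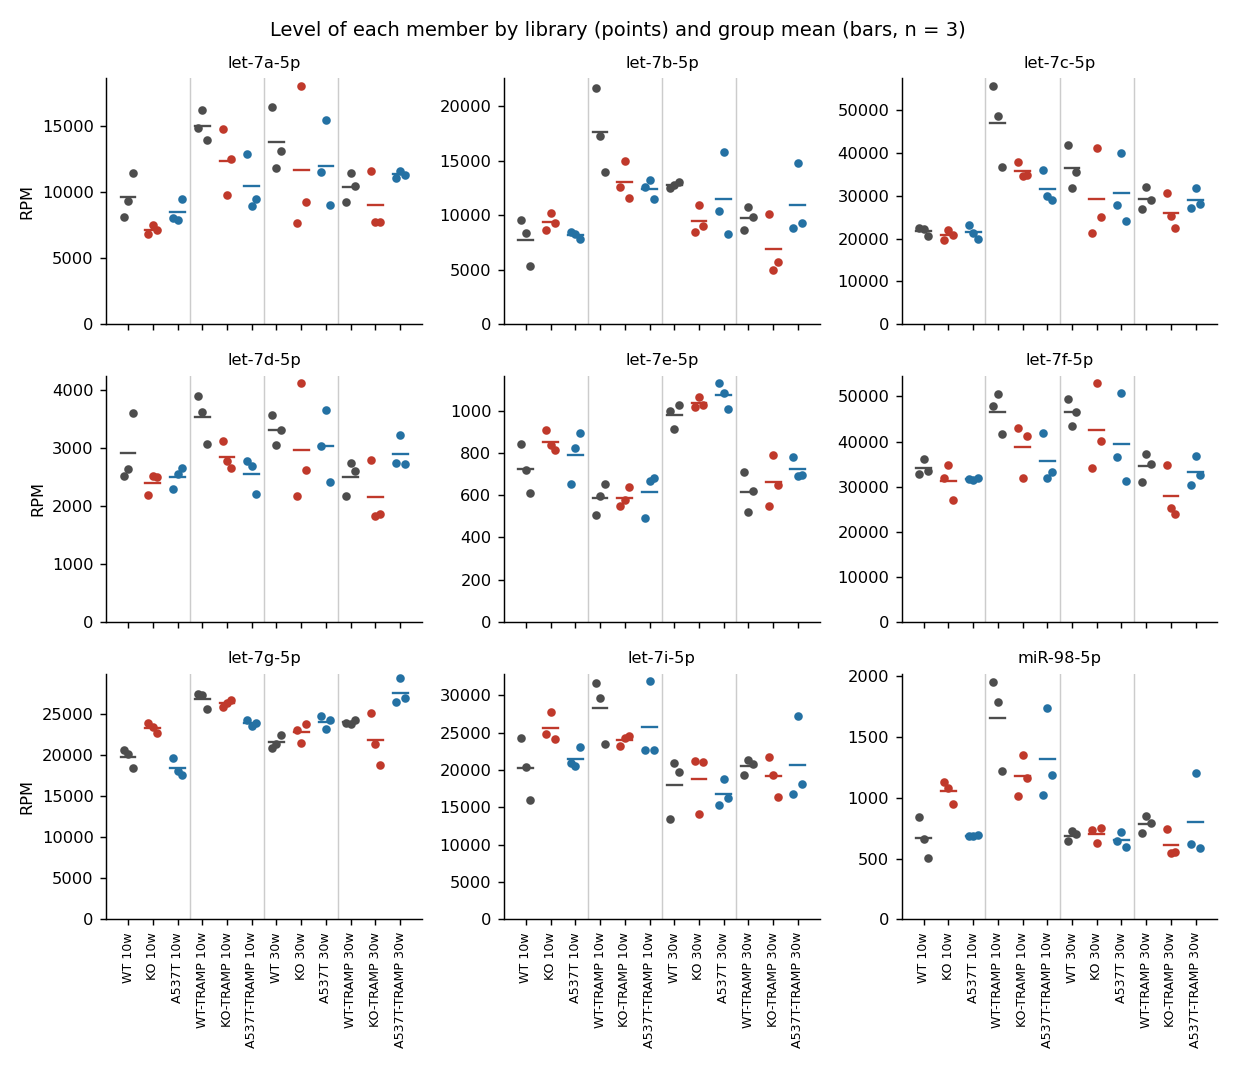
Level of each member in RPM in the 36 libraries, 1 panel per member, each axis starting at 0. Points are libraries, bars are means of the 3 libraries of a group, and grey, red and blue mark WT, KO and A537T. let-7c-5p, let-7b-5p and miR-98-5p have their highest group mean in WT-TRAMP at 10 weeks, and let-7e-5p has its lowest there.

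WT-TRAMP at 10 weeks had the highest group mean for 7 of the 9 members. The exceptions were let-7e-5p, lowest in WT-TRAMP at 10 weeks with 585 RPM and highest in A537T at 30 weeks with 1075, and let-7g-5p, which was highest in A537T-TRAMP at 30 weeks with 27595. The highest and lowest group means differed by 2.68 times for miR-98-5p, 2.55 times for let-7b-5p, 2.25 times for let-7c-5p and 2.09 times for let-7a-5p. For the other members they differed by 1.497 to 1.84 times.

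The summed share was 18.7% ± 2.38 (SD, n = 3) in WT-TRAMP at 10 weeks, with 20.5%, 19.6% and 16.02% in its libraries. KO-TRAMP and A537T-TRAMP at 10 weeks had 15.5% ± 0.782 and 14.4% ± 1.04. Without TRAMP at 10 weeks the share was 11.7% ± 0.658 in WT, 12.2% ± 0.753 in KO and 11.4% ± 0.173 in A537T. At 30 weeks it was 15.4% ± 0.655 in WT, 13.9% ± 2.30 in KO and 13.9% ± 2.71 in A537T. The TRAMP groups of that age had 13.2% ± 0.908 in WT-TRAMP, 11.4% ± 2.10 in KO-TRAMP and 13.7% ± 1.70 in A537T-TRAMP. All 9 TRAMP libraries of 10 weeks were above all 9 non-TRAMP libraries of that age. At 30 weeks TRAMP and non-TRAMP libraries overlapped in KO and in A537T, while the WT-TRAMP libraries, at 12.3% to 14.1%, were all below those of WT, at 14.7% to 15.98%.

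**Figure D3:**
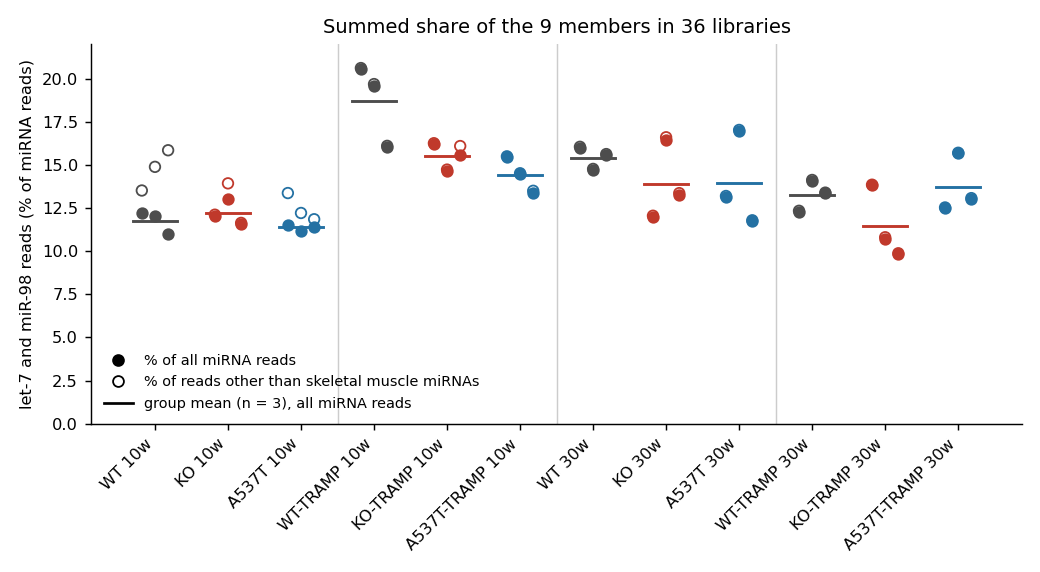
Summed share of the 9 members in each library, as a percent of all miRNA reads (filled points, bars for the group mean, n = 3) and of the reads other than skeletal muscle miRNAs (open points); grey, red and blue mark WT, KO and A537T. The 9 TRAMP libraries of 10 weeks lie at 13.4% to 20.5% and the 9 non-TRAMP libraries of 10 weeks at 10.99% to 13.02%, and the open points of WT at 10 weeks reach 15.8%.

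The effect of TRAMP at 10 weeks was taken as the difference between TRAMP and non-TRAMP groups averaged over the 3 lines. 6 members rose and 1 fell, where over all miRNAs tested 71.1% changed, 29.2% upward and 41.9% downward. The split over all miRNAs, 87 upward and 125 downward, became 99 and 112 with TMM scaling, 101 and 98 with DESeq2 size factors and 71 and 144 without muscle miRNAs. The members' median log2 fold change was 0.33, against -0.23 over all 298 miRNAs. The summed share was 1.37 times higher, and without the muscle reads the log2 ratio was 0.30 instead of 0.45, with libraries at 13.5% to 20.6% and 11.6% to 15.8% that overlapped. The ratio of group means was 1.59 in WT, 1.27 in KO and 1.27 in A537T, and the libraries did not overlap in any line. Without the muscle reads the group means lay closer in WT, at 18.8% with TRAMP against 14.7% without it. They were 15.7% against 12.6% in KO and 14.5% against 12.5% in A537T. Whether the lines differed in this effect was not tested.

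let-7c-5p, made from precursors on chromosomes 15 and 16, rose most. It had 55587, 48591 and 36651 RPM in the WT-TRAMP libraries of 10 weeks and 22400, 22265 and 20560 RPM in those of WT. In KO-TRAMP it had 37800, 34537 and 34855 RPM against 19753, 22072 and 20849 in KO, and in A537T-TRAMP 35998, 29924 and 28959 RPM against 23053, 21367 and 19944 in A537T. Every TRAMP library was above every non-TRAMP library. On the log2 scale the rise was 0.81 ± 0.11 (SE), or 1.75 times (limma, adjusted p = 6.17e-07).

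let-7b-5p, the neighbour of let-7c-2, also showed no overlap. It ranged from 11473 to 21709 RPM in the 9 TRAMP libraries (median 13202) and from 5300 to 10170 RPM in the 9 non-TRAMP libraries (median 8479). Its rise was 0.76 ± 0.14 (log2, SE; limma adjusted p = 3.79e-05). miR-98-5p, at 1016 to 1951 RPM (median 1224) against 507 to 1130 (median 696), rose by 0.79 ± 0.13 (log2, SE; limma adjusted p = 1.08e-05). The lowest TRAMP libraries of miR-98-5p overlapped with the KO libraries, of which the highest had 1130 RPM.

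The other 3 rises were smaller. let-7a-5p rose by 0.57 ± 0.14 (log2, SE; limma adjusted p = 7.06e-04), let-7g-5p by 0.33 ± 0.06 (limma adjusted p = 1.07e-05) and let-7f-5p by 0.30 ± 0.10 (limma adjusted p = 0.00941). let-7g-5p had no overlap within any of the 3 lines, let-7a-5p none in 2 of them and let-7f-5p none in 1. For the comparisons of TRAMP and of age, the share of all miRNAs without overlap was not counted. Lack of overlap there cannot be read as a trait of the members. let-7d-5p (log2 fold change 0.19, adjusted p = 0.146) and let-7i-5p (0.22, adjusted p = 0.0945) did not pass in limma. let-7i-5p passed without library 28 of WT (0.26, adjusted p = 0.0494), and both passed with TMM or DESeq2 size factor scaling, edgeR and DESeq2. Without muscle miRNAs in the total their differences were 0.03 and 0.06.

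let-7e-5p, which is made from an intron of Spaca6 together with miR-99b and miR-125a, was the exception. It had 494 to 682 RPM in the TRAMP libraries (median 597) and 610 to 907 RPM in the non-TRAMP libraries (median 822). It fell by 0.40 ± 0.09 (log2, SE; limma adjusted p = 3.74e-04), in all 3 lines by the mean and without overlap in 1. With DESeq2 size factors its log2 fold change was -0.20 and its adjusted p 0.106, and in DESeq2 -0.19 and 0.126.

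Shares of other cell types moved with TRAMP at 10 weeks. Epithelial marker miRNAs took 6.33% to 9.29% of the reads in TRAMP libraries and 3.84% to 6.88% in non-TRAMP libraries. Smooth muscle markers took 7.17% to 22.2% (median 10.7%) against 6.62% to 38.9% (median 29.3%). Skeletal muscle miRNAs took 0.218% to 3.09% against 0.734% to 30.6%, and red cell miRNAs 0.0137% to 0.0615% against 0.105% to 0.193%. Fibroblast markers took 0.102% to 0.181% against 0.137% to 0.302%, and white blood cell markers 0.0275% to 0.0731% against 0.0236% to 0.0462%. TRAMP libraries were also shallower, at 4544257 to 13014486 reads, than all but 2 of the non-TRAMP libraries of that age. The part of these differences in the members' rises was not tested, except that with muscle miRNAs left out of the total let-7f-5p no longer passed (log2 fold change 0.15, adjusted p = 0.205) and the other 6 calls held. Without the WT line, whose controls held the most muscle, 6 members passed, and let-7f-5p again did not (0.23, adjusted p = 0.105).

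At 30 weeks the same comparison gave 3 members that fell and 0 that rose, where 46.3% of all miRNAs changed, 26.8% upward and 19.5% downward. With TMM scaling the calls over all miRNAs were 66 upward and 75 downward, and with DESeq2 size factors 61 and 83, instead of 80 and 58. The members' median log2 fold change was -0.25, against 0.02 over all miRNAs. The summed share was 1.13 times lower in TRAMP libraries, with ranges of 9.81% to 15.7% and 11.7% to 16.96% that overlapped. As a log2 ratio it was -0.17, and it was -0.07 without libraries 19, 23 and 26 and -0.08 without let-7f-5p.

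let-7e-5p fell most at 30 weeks. It had 710, 522 and 618 RPM in WT-TRAMP against 1000, 915 and 1025 in WT, and 549, 790 and 649 RPM in KO-TRAMP against 1019, 1065 and 1026 in KO. A537T-TRAMP had 783, 692 and 694 RPM against 1133, 1083 and 1011 in A537T. No TRAMP library reached the lowest non-TRAMP library, and the difference was -0.64 ± 0.09 (log2, SE; limma adjusted p = 1.18e-06). let-7e-5p was thus lower in TRAMP at both ages, and its effects at the 2 ages did not differ past the threshold in limma on RPM, although they did with other scalings (given with the interaction).

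let-7f-5p fell by 0.42 ± 0.10 (log2, SE; limma adjusted p = 0.00118), from 31238 to 53075 RPM (median 43495) without TRAMP to 23975 to 37267 RPM (median 32565) with it. let-7d-5p fell by 0.30 ± 0.11 (limma adjusted p = 0.0323), a call that was lost without any 1 of libraries 10, 13, 15, 17, 18, 19, 23 and 26, with adjusted p from 0.0541 to 0.0945, and also without a filter (0.0716), with only the groups compared (0.0833) and without the WT line (0.177). Without libraries 19, 23 and 26 together let-7d-5p had a log2 fold change of -0.15 and an adjusted p of 0.271, and 2 members passed. let-7b-5p, at -0.32, had an adjusted p of 0.0639, which dropped to between 0.00896 and 0.0460 without library 14, 16, 27 or 30. let-7a-5p, at -0.25, passed without library 22 (-0.33, adjusted p = 0.0452).

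At 30 weeks white blood cell markers took 0.0731% to 0.170% of the reads in TRAMP libraries and 0.0234% to 0.0634% in non-TRAMP libraries, without overlap. Epithelial markers, at 6.14% to 9.24% against 6.11% to 10.3%, and skeletal muscle miRNAs, at 0.187% to 0.936% against 0.355% to 0.820%, overlapped widely. Smooth muscle markers took 5.51% to 33.6% (median 13.3%) against 12.2% to 28.99% (median 23.5%), and red cell miRNAs 0.0165% to 0.0611% (median 0.0413%) against 0.0320% to 0.151% (median 0.0827%). The part of these differences in the falls was not tested.

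**Figure D4:**
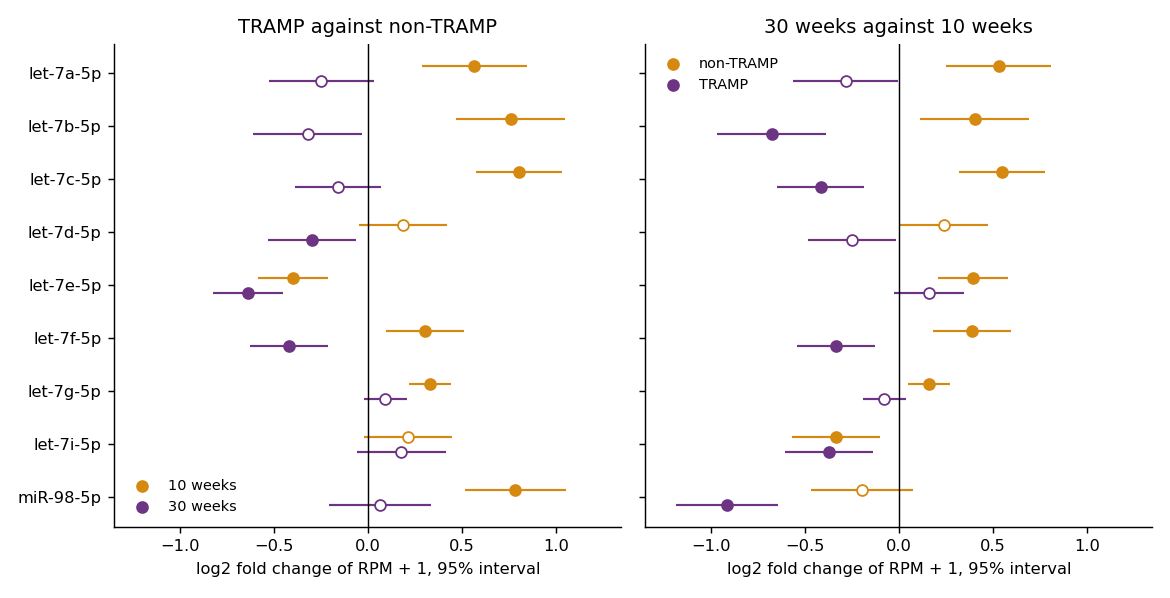
Log2 fold change of each member with its 95% interval from limma. Left, TRAMP against non-TRAMP at 10 weeks (orange) and 30 weeks (purple); right, 30 against 10 weeks without TRAMP (orange) and with TRAMP (purple), each averaged over the 3 lines. Filled points passed an adjusted p of 0.05; 6 members rose with TRAMP at 10 weeks and none at 30 weeks.

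Whether the TRAMP effect differed between the ages was tested as an interaction over all 36 libraries. The effect at 30 weeks minus that at 10 weeks was below 0 for 7 of the 9 members past the threshold and above 0 for none, where 41.6% of all miRNAs passed, 12.4% downward and 29.2% upward. The split over all miRNAs, 87 upward and 37 downward, became 60 and 59 with TMM scaling, 52 and 77 with DESeq2 size factors and 117 and 22 with the total without muscle miRNAs. The members' median difference was -0.72 on the log2 scale, against 0.22 over all miRNAs, and stayed negative with TMM scaling (-0.94), with DESeq2 size factors (-1.05) and without muscle miRNAs (-0.57).

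The difference was widest for let-7b-5p, at -1.08 ± 0.20 (SE; limma adjusted p = 1.96e-04), and for let-7c-5p, at -0.97 ± 0.16 (limma adjusted p = 6.31e-05). let-7a-5p had -0.82 ± 0.19, let-7f-5p -0.72 ± 0.14 and miR-98-5p -0.72 ± 0.19, with limma adjusted p of 0.00211, 4.03e-04 and 0.00413. let-7d-5p had -0.49 ± 0.16 and let-7g-5p -0.24 ± 0.08, with limma adjusted p of 0.0188 and 0.0183. let-7e-5p, at -0.24 (95% interval -0.50 to 0.03), and let-7i-5p, at -0.04 (95% interval -0.37 to 0.30), did not pass. let-7e-5p did with TMM scaling (-0.46, adjusted p = 0.0190) and with DESeq2 size factors (-0.57, adjusted p = 0.00577), and let-7i-5p with DESeq2 size factors (-0.37, adjusted p = 0.0463). Both also passed in DESeq2, at -0.58 (adjusted p = 0.00199) and -0.38 (adjusted p = 0.0265).

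Leaving out any 1 library kept the count at 7. With muscle miRNAs left out of the total 5 passed, as let-7d-5p (adjusted p = 0.117) and let-7g-5p (adjusted p = 0.427) fell short. Without libraries 19, 23 and 26 there were 6, without let-7d-5p (adjusted p = 0.0855). Without the WT line 4 passed, let-7a-5p, let-7b-5p, let-7c-5p and let-7f-5p.

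Age without TRAMP was the next comparison, 30 against 10 weeks. 6 members rose and 1 fell, where 37.2% of all miRNAs changed, 16.8% upward and 20.5% downward. The split over all miRNAs, 50 upward and 61 downward, became 70 and 57 with TMM scaling, 96 and 56 with DESeq2 size factors and 25 and 95 without muscle miRNAs. The members' median log2 fold change was 0.39, against -0.04 over all miRNAs. The summed share was 1.22 times higher at 30 weeks, and the log2 ratio was 0.12 instead of 0.28 without muscle reads and 0.18 without libraries 19, 23 and 26.

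let-7c-5p rose by 0.55 ± 0.11 (log2, SE; limma adjusted p = 2.92e-04), from 19753 to 23053 RPM at 10 weeks to 21331 to 41941 RPM at 30 weeks. let-7a-5p rose by 0.53 ± 0.14 (limma adjusted p = 0.00280), let-7b-5p by 0.40 ± 0.14 (limma adjusted p = 0.0234), let-7f-5p by 0.39 ± 0.10 (limma adjusted p = 0.00312) and let-7g-5p by 0.16 ± 0.06 (limma adjusted p = 0.0228). let-7e-5p, at 610 to 907 RPM and then 915 to 1133, rose by 0.40 ± 0.09 (limma adjusted p = 9.52e-04) without overlap between the ages. let-7i-5p fell by 0.33 ± 0.11 (limma adjusted p = 0.0214), from a median of 23060 to a median of 18827 RPM, with overlap. let-7d-5p (0.24, adjusted p = 0.1004) and miR-98-5p (-0.20, adjusted p = 0.248) did not pass.

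Several of these calls rested on few libraries or on the total. Without libraries 19, 23 and 26 only let-7c-5p, let-7e-5p and let-7g-5p passed, and let-7a-5p (adjusted p = 0.0533) and let-7f-5p (0.0567) were among those that fell short. let-7g-5p was lost when the fit held only the groups compared (adjusted p = 0.0606). let-7b-5p was lost without library 23 (adjusted p = 0.0541), 26 (0.0770) or 30 (0.0575), and let-7i-5p without library 19 (adjusted p = 0.0718), 23 (0.0630) or 28 (0.0554). let-7d-5p passed without library 22 (adjusted p = 0.0303), 27 (0.0474) or 30 (0.0381). Without muscle miRNAs in the total, let-7b-5p (0.25, adjusted p = 0.150), let-7f-5p (0.23, adjusted p = 0.0876) and let-7g-5p (0.00, adjusted p = 0.982) no longer passed, and miR-98-5p did (-0.35, adjusted p = 0.0253). Skeletal muscle miRNAs were at 0.734% to 30.6% at 10 weeks and 0.355% to 0.820% at 30 weeks, and epithelial markers at 3.84% to 6.88% and 6.11% to 10.3%. Their part in the remaining differences was not tested.

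With TRAMP, the summed share went the other way with age. let-7i-5p and miR-98-5p, however, had negative log2 fold changes on both backgrounds, and let-7e-5p had positive ones. 5 members fell and 0 rose from 10 to 30 weeks, where 29.2% of all miRNAs changed, 21.1% upward and 8.05% downward. The split over all miRNAs, 63 upward and 24 downward, became 39 and 42 with TMM scaling and 38 and 43 with DESeq2 size factors. The members' median log2 fold change was -0.34, against 0.09 over all miRNAs, and the summed share was 1.27 times lower. By line, the ratio of mean summed shares was 0.71 in WT-TRAMP, 0.74 in KO-TRAMP and 0.95 in A537T-TRAMP. In A537T-TRAMP the ages overlapped for the sum and for each of the 5 members. let-7g-5p had ratios of 0.90 in WT-TRAMP, 0.83 in KO-TRAMP and 1.15 in A537T-TRAMP. Whether the lines differed in the effect of age was not tested.

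miR-98-5p fell most. It had 1951, 1790 and 1224 RPM in WT-TRAMP at 10 weeks and 708, 851 and 795 RPM at 30 weeks, and 1016, 1355 and 1165 RPM against 748, 549 and 552 in KO-TRAMP. In A537T-TRAMP it had 1022, 1742 and 1190 RPM against 619, 1208 and 585, so that only that line overlapped. The difference between the ages was -0.92 ± 0.13 (log2, SE; limma adjusted p = 5.70e-06). let-7b-5p fell by 0.68 ± 0.14 (limma adjusted p = 8.52e-04), let-7c-5p by 0.42 ± 0.11 (limma adjusted p = 0.00744), let-7i-5p by 0.37 ± 0.11 (limma adjusted p = 0.0202) and let-7f-5p by 0.34 ± 0.10 (limma adjusted p = 0.0183).

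let-7i-5p passed as lower with age on both backgrounds in limma on RPM. Without TRAMP this call was lost with TMM scaling (-0.23, adjusted p = 0.0722), with DESeq2 size factors (-0.14, adjusted p = 0.283), without a filter (adjusted p = 0.0574) and in DESeq2 (-0.13, adjusted p = 0.291). Without library 16 of KO-TRAMP, 7 members fell, with let-7a-5p (adjusted p = 0.0457) and let-7d-5p (adjusted p = 0.0262) added. Without the WT line 2 fell, let-7b-5p and miR-98-5p. White blood cell markers took 0.0275% to 0.0731% of the reads at 10 weeks and 0.0731% to 0.170% at 30 weeks in TRAMP libraries, and their part in the falls was not tested.

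The lines with a changed Elac2 were compared with their controls in 8 comparisons of 3 against 3 libraries. Members past an adjusted p of 0.05 in limma numbered 0 of 9 in each, and the same was found with edgeR and with DESeq2. Over all 298 miRNAs, 5.70% were called in KO vs WT at 10 weeks (1.01% higher, 4.70% lower), 1.01% in KO vs WT at 30 weeks (all lower) and 4.03% in KO-TRAMP vs WT-TRAMP at 30 weeks (2.68% higher, 1.34% lower). In the other 5 comparisons 0% were called. Over all miRNAs the split in KO vs WT at 30 weeks, 0 higher and 3 lower, became 3 and 5 with TMM scaling and 14 and 16 with DESeq2 size factors. In KO-TRAMP vs WT-TRAMP at 30 weeks it was 8 and 4, and 5 and 8 with TMM scaling. A537T vs WT at 30 weeks had 20 higher and 0 lower with TMM scaling and 13 and 0 with DESeq2 size factors. At an unadjusted p under 0.05, KO vs WT at 10 weeks had 2 of 9 members and 24.8% of all miRNAs, and A537T vs WT at that age 0 members and 5.03%. Against WT-TRAMP at 10 weeks A537T-TRAMP had 4 members and 7.38% of all, and KO-TRAMP 1 member and 5.03%. At 30 weeks KO and A537T had 0 members, where 16.4% and 11.7% of all miRNAs were below that level, and KO-TRAMP and A537T-TRAMP had 1 member each, where 20.5% and 7.38% were.

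**Figure D5:**
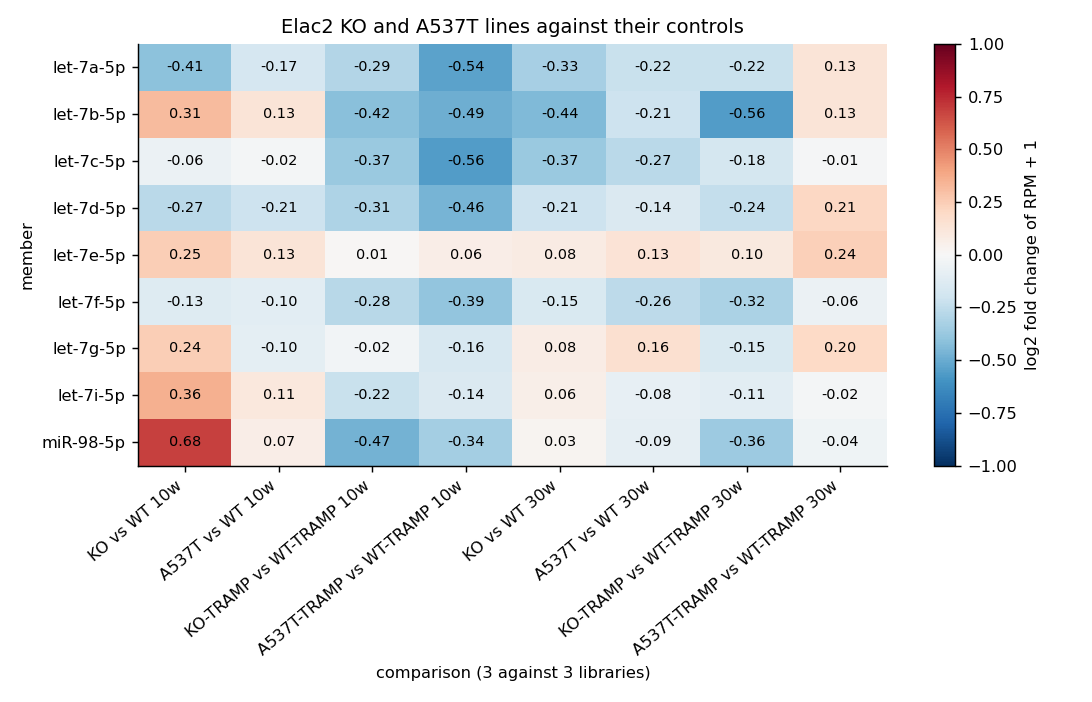
Log2 fold change of each member (rows) in KO and A537T lines against their controls (columns, 3 against 3 libraries). Colour and printed value give the log2 fold change of RPM + 1; none passed an adjusted p of 0.05, and values ran from -0.56 to 0.68.

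For KO vs WT at 10 weeks, miR-98-5p had 1130, 1084 and 952 RPM in KO and 841, 661 and 507 RPM in WT. The groups did not overlap, and KO was higher by 0.68 ± 0.23 (log2, SE; limma adjusted p = 0.0761). Without muscle miRNAs in the total the difference was 0.40 (adjusted p = 0.279). It passed without WT library 28 (0.86, adjusted p = 0.0144) and without library 14, of A537T-TRAMP at 30 weeks, which enters through the shared spread (adjusted p = 0.0268). let-7g-5p, at 23968, 23381 and 22752 RPM against 20696, 20101 and 18447, had a log2 fold change of 0.24 (adjusted p = 0.124), and -0.04 without muscle miRNAs in the total. let-7a-5p went the other way, with 6820, 7529 and 7116 RPM in KO and 8069, 9288 and 11446 RPM in WT (log2 fold change -0.41, adjusted p = 0.269). Over the alternatives the log2 fold change ran from -0.74 to -0.28 for let-7a-5p and from -0.60 to -0.11 for let-7d-5p, without a call. 4 of 9 members, miR-98-5p, let-7g-5p, let-7a-5p and let-7d-5p, did not overlap between groups, and neither did 28.5% of all miRNAs. In A537T vs WT at 10 weeks 1 member, let-7f-5p, and 7.72% of all miRNAs did not overlap. Among the WT libraries, the one with most muscle reads, library 30 at 30.6%, had the most let-7a-5p and let-7d-5p and the least let-7b-5p, let-7c-5p, let-7e-5p, let-7g-5p, let-7i-5p and miR-98-5p of its group.

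At 10 weeks, A537T-TRAMP had lower means than WT-TRAMP for 8 of 9 members, and for 72.1% of all miRNAs, by the fitted log2 fold change. 5 members and 14.4% of all miRNAs did not overlap between groups. let-7c-5p had a log2 fold change of -0.56 ± 0.19 (SE; limma adjusted p = 0.573), and let-7a-5p -0.54 ± 0.24 (limma adjusted p = 0.573). The summed share was 15.5%, 14.5% and 13.4% against 20.5%, 19.6% and 16.02%, a log2 ratio of -0.37. It was -0.17 in the counts as deposited, which were scaled by size factors within the table. The members' median was -0.39, against -0.19 over all miRNAs, and -0.18 with TMM scaling. KO-TRAMP, compared with the same control libraries, had a members' median of -0.29 against -0.15 over all miRNAs, which was -0.13 with TMM scaling and -0.08 with DESeq2 size factors for the members. Its summed shares of 16.2%, 14.7% and 15.6% overlapped with those of WT-TRAMP. Its libraries overlapped with the controls for all 9 members, and did not for 7.05% of all miRNAs.

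At 30 weeks the groups did not overlap for let-7b-5p in KO vs WT and for let-7g-5p in A537T vs WT and A537T-TRAMP vs WT-TRAMP, and overlapped for every other member. Over all miRNAs 18.5% did not overlap in KO vs WT, 14.8% in A537T vs WT, 27.5% in KO-TRAMP vs WT-TRAMP and 21.1% in A537T-TRAMP vs WT-TRAMP. Without libraries 19, 23 and 26 the summed share, as a log2 ratio, was -0.26 instead of -0.16 in KO vs WT and -0.29 instead of -0.16 in A537T vs WT. The members' median log2 fold change was -0.15 for KO vs WT (0.07 with TMM scaling and 0.12 with DESeq2 size factors) and -0.14 for A537T vs WT (0.03 with TMM scaling). It was -0.22 for KO-TRAMP vs WT-TRAMP and 0.13 for A537T-TRAMP vs WT-TRAMP. let-7b-5p had the lowest value, -0.56 ± 0.24 (SE; limma adjusted p = 0.182) in KO-TRAMP, with 10104, 5015 and 5668 RPM against 8660, 10793 and 9834. Without library 16, the KO-TRAMP library that lay within the range of WT-TRAMP, it was -0.87 with an adjusted p of 0.00948. let-7c-5p passed in KO vs WT at 30 weeks without library 23 (-0.65, adjusted p = 0.0347) and not with it (-0.37, adjusted p = 0.333).

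The other arms of the same precursors were measured too, at far lower levels. Of 11 listed, 8 had a mean of at least 10 RPM. With TRAMP at 10 weeks 5 of these rose and 1 fell, where 71.1% of all miRNAs tested changed. The entry that merges the identical let-7a-1-3p and let-7c-2-3p rose by 1.15 ± 0.10 (log2, SE; limma adjusted p = 7.52e-11), and let-7b-3p by 0.98 ± 0.17 (limma adjusted p = 1.15e-05). let-7e-3p fell by 0.68 ± 0.11 (limma adjusted p = 6.39e-06), as its partner let-7e-5p did. let-7d-3p rose by 0.61 ± 0.15 (limma adjusted p = 9.99e-04), while let-7d-5p did not pass. let-7d-3p was the most abundant of these arms relative to its partner, at 11.2% to 25.3% of the reads of let-7d-5p over the 36 libraries, whereas let-7i-3p had 0.0393% to 0.0979% of those of let-7i-5p.

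At 30 weeks 2 of the 8 rose with TRAMP and 1 fell, where 46.3% of all miRNAs changed. The merged arm was again higher, by 1.01 ± 0.10 (limma adjusted p = 8.41e-10), although neither let-7a-5p nor let-7c-5p rose at that age, and let-7f-2-3p rose by 0.51 ± 0.18 (limma adjusted p = 0.0207) while let-7f-5p fell. let-7e-3p fell by 0.47 ± 0.11 (limma adjusted p = 7.70e-04). In the difference between the ages 1 of the 8 passed, where 41.6% of all miRNAs did. This was let-7b-3p at -0.87 ± 0.24 (limma adjusted p = 0.00551), in the direction of let-7b-5p. With age, 1 of the 8 fell without TRAMP, let-7i-3p by 0.42 ± 0.13 (limma adjusted p = 0.0127), and 1 with TRAMP, let-7b-3p by 0.50 ± 0.17 (limma adjusted p = 0.0275). Over all miRNAs 37.2% changed with age without TRAMP and 29.2% with it.

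Some let-7 genes lie beside genes of the miR-99/100 and miR-125 families, of which miR-99a-5p, miR-99b-5p, miR-100-5p, miR-125a-5p and miR-125b-5p were taken as cluster partners. With TRAMP at 10 weeks none of these 5 rose and 2 fell, where 29.2% of all miRNAs rose and 41.9% fell. The 2 were miR-100-5p, by 0.47 ± 0.15 (limma adjusted p = 0.00608), and miR-125b-5p, by 0.27 ± 0.11 (limma adjusted p = 0.0318). At 30 weeks 2 fell, miR-125a-5p by 0.38 ± 0.13 (limma adjusted p = 0.0168) and miR-99a-5p by 0.25 ± 0.10 (limma adjusted p = 0.0340). Over all miRNAs 46.3% changed at that age, 19.5% downward. From 10 to 30 weeks 3 of the 5, miR-99b-5p, miR-125a-5p and miR-125b-5p, rose on both backgrounds. Over all miRNAs 16.8% rose without TRAMP and 21.1% with it. In the difference of the TRAMP effect between the ages 0 of the 5 passed in limma, where 41.6% of all miRNAs did. An unadjusted p under 0.05 was found for 0 of the 5 and for 147 of all 298 miRNAs. Their summed share was 2.91% to 4.63% in TRAMP libraries and 3.46% to 5.12% in non-TRAMP libraries of 10 weeks, and these ranges overlapped.

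Of 153 other miRNAs with a mean of at least 100 RPM, those whose level was most like the members' summed level over the 12 group means, by Pearson's r of log2(RPM + 1), were miR-148a-5p (r = 0.86), miR-26a-5p (r = 0.84), miR-204-5p (r = 0.83), let-7d-3p (r = 0.80) and miR-5099 (r = 0.79). Over the 36 libraries their r was 0.77, 0.68, 0.78, 0.73 and 0.74. miR-26a-5p had the highest level of these, with group means from 33439 to 50803 RPM. These values share the totals of the libraries and describe likeness of level only.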

How the data were processed

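Small RNA libraries (Illumina TruSeq Small RNA kit, NovaSeq) were analysed in 12 groups of 3. The authors joined and trimmed reads in BBMerge, counted miRNAs with mirDeep2 against GRCm38 and miRBase, and summed entries with identical sequences. The 8 deposited tables hold a signal, reads divided by a DESeq2 size factor within the 6 libraries of each table. Whole reads were recovered from the value of 1 read in each column (100% whole within 0.001 reads), and RPM was computed from these, as tables normalised separately cannot be compared directly. The authors' own comparison tables (shrunken fold changes and s-values) were not used, and the lists of merged names only served to name 1 merged entry.

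Columns carry a library number and an index but no group. Columns found in both the KO and the mutant table of the same background and age were read as controls, the others as the line named by the table, with "Mut" read as A537T. Groups thus rest on table names, which no miRNA value checks. Columns without a group numbered 0. The column names give 1 flow cell for all libraries.

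limma 3.58.1 with a variance trend (R 4.3.3) was fitted to log2(RPM + 1) of the 298 miRNAs with a mean of at least 10 RPM, with the 12 group means as coefficients. Tests were two-sided, with Benjamini-Hochberg adjustment within each comparison at 0.05. Every adjusted p is from this fit unless another tool is named. Fold changes on this scale understate changes of low miRNAs. The summed share was described without a test. The fit was tested on simulated data. Changed miRNAs were drawn there outside the most abundant ones, so changes in miRNAs like the most abundant members were not covered. Alternatives were TMM and DESeq2 size factor scaling, a total without skeletal muscle miRNAs, no filter, a stricter filter (mean of 100 RPM or more), a larger pseudocount of 10, no variance trend, only the groups compared, edgeR 4.0.16 (quasi-likelihood) and DESeq2 1.42.0 on the recovered reads, and leaving out each library. Another 2, without the WT line and without libraries 19, 23 and 26, were added after the values were seen.

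The members, the lists and the alternatives were chosen with earlier results of these data known. The rule named all 9 members in each comparison, the other arms of their precursors, the cluster partners, other miRNAs with their seed, and the 5 miRNAs most like their sum. Sequences came from RefSeq (GRCm38.p6) and overlaps from GENCODE on the same build.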

Additional observations from a re-analysis of the deposited data

Results flagged for a closer look

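For 7 members the effect of TRAMP differed between 10 and 30 weeks by the test of the difference itself, an interaction in limma with adjustment over 298 miRNAs. On the log2 scale the effect at 30 weeks minus that at 10 weeks was -0.82 for let-7a-5p, -1.08 for let-7b-5p, -0.97 for let-7c-5p and -0.49 for let-7d-5p. It was -0.72 for let-7f-5p, -0.24 for let-7g-5p and -0.72 for miR-98-5p. At 10 weeks these 7 had higher means in TRAMP than in non-TRAMP libraries in all 3 lines. At 30 weeks let-7a-5p, let-7b-5p, let-7c-5p, let-7d-5p and let-7f-5p had lower means in all 3 lines, while let-7g-5p and miR-98-5p had higher means in 2 of 3. In A537T the ratio of means at 30 weeks was 0.94 for let-7a-5p and let-7c-5p and 0.95 for let-7b-5p and let-7d-5p. It was 0.84 for let-7f-5p, and the libraries of that line overlapped for each of them. 41.6% of all miRNAs tested passed the test of the difference. With muscle miRNAs left out of the total, let-7d-5p and let-7g-5p did not pass it.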

How the results depend on the processing

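No paired analysis was possible because the columns of the tables carry no replicate numbers. Of 29 calls of a member in a comparison of 2 conditions or in the interaction, 0 changed direction and 15 were kept in every alternative run. The other 88 values passed in 40 of 4150 alternatives, and 32 of them changed sign in 93 alternatives, without a call on either side. TRAMP at 30 weeks gave 5 members with DESeq2 instead of 3, and age without TRAMP gave 4 without a filter and 3 without libraries 19, 23 and 26 instead of 7. Without the WT line, age with TRAMP gave 2 members instead of 5 and the interaction 4 instead of 7. KO vs WT at 30 weeks gave 1 without libraries 19, 23 and 26 instead of 0. Leaving out 1 library gave 0 to 1 members for KO vs WT at 10 weeks (miR-98-5p, without library 14 or 28), for KO vs WT at 30 weeks (let-7c-5p, without library 23) and at 30 weeks for KO-TRAMP against WT-TRAMP (let-7b-5p, without library 16). It gave 7 to 8 for TRAMP at 10 weeks, 2 to 4 at 30 weeks, 5 to 8 for age without TRAMP, 5 to 7 with TRAMP and 7 to 9 over the 12 groups.

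The summed share, as a log2 ratio without a test, moved by more than the spread within groups (0.16) in 5 comparisons of 3 against 3 libraries. KO vs WT at 10 weeks was 0.05, -0.23 without muscle miRNAs and -0.14 in the counts as deposited, and A537T vs WT at 10 weeks was -0.05 and -0.24 without muscle miRNAs. In the counts as deposited, KO-TRAMP vs WT-TRAMP at 10 weeks was -0.057 instead of -0.27, A537T-TRAMP vs WT-TRAMP at 10 weeks -0.17 instead of -0.37 and KO vs WT at 30 weeks 0.070 instead of -0.16. Scaling by TMM, by DESeq2 size factors or without muscle miRNAs moved the median log2 fold change of all miRNAs by up to 0.32 in size. The causes of these changes were not tested beyond what each alternative leaves out.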

Other observations

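let-7j, which differs from let-7i-5p by G8U over the length they share, had 506 to 1069 RPM over the 36 libraries. This was 2.74% to 4.69% of the reads of let-7i-5p in the same library, with a median of 3.76%. let-7k, which differs from let-7b-5p by U9G over its 19 bases, had 0.0184% to 0.0539% of the reads of let-7b-5p, from 1 to 82 reads per library.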
